A study of Rattus norvegicus with 8 samples.

Results

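The Rbfox, Nova, Ptbp and Mbnl splicing regulators were followed here as 9 genes, Rbfox1, Rbfox2, Rbfox3, Nova1, Nova2, Ptbp1, Ptbp2, Mbnl1 and Mbnl2. They were chosen by symbol among the 28909 symbols of the count table. No rule on their values was used, but earlier results of these data were known. All 9 passed the filter on low counts (more than 20 reads in at least 2 libraries), which 14309 symbols passed in all. The cells were primary hippocampal neurons of Sprague-Dawley rats, grown on porous filter inserts that let processes, but not cell bodies, reach the lower side. The compartments were somata, taken from the upper side, and processes, taken from the lower side. Cultures had received either picrotoxin (PTX), an antagonist of the GABA-A receptor that raises network activity, for 48 h from day 18 in vitro (DIV18), or vehicle (control), and were lysed at DIV20. Each of the 4 conditions (control somata, PTX somata, control processes, PTX processes) had 2 libraries of ribosome-depleted total RNA, numbered 1 and 2. The sources used here do not tie the numbers to separate cultures, so p-values measure the spread between these libraries, which may be technical. The comparisons ask where the mRNAs of these regulators are found and whether their levels shift when activity is raised for 2 days.

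Splicing regulators of these families bind short motifs in pre-mRNA, and the position of the motif relative to an exon decides whether that exon is included or skipped. Rbfox proteins bind GCAUG, Nova proteins bind clusters of UCAU, Ptbp proteins bind pyrimidine-rich tracts such as UCUU, and Mbnl proteins bind UGCU. Rbfox3 is the antigen known as NeuN, a standard marker of mature neurons, while Ptbp1 is typical of progenitors and glia and gives way to its paralog Ptbp2 when neurons differentiate. Cytoplasmic forms of Rbfox1 and of Mbnl proteins also bind untranslated regions and are known to affect the stability or the transport of mRNAs. The values below are reads per gene, which give the level of each regulator's own mRNA and say nothing of which exons were included in it or in its targets.

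The libraries held 12290890 to 18455662 assigned reads. Mitochondrially encoded genes took 22.56 to 26.71% of the reads in somata and 68.52 to 72.52% in processes, which left 4702054 to 5491237 other reads in processes against 9517542 to 11227599 in somata. The 9 genes together had 6430 to 7970 reads in each somata library and 2215 to 2507 in each process library, so counting error was larger in processes. Levels are given as CPM (reads of a gene per 1000000 reads of the library) after TMM scaling, which equalizes the bulk of the genes between libraries. RNA of glia was present too. The summed level of 9 astrocyte markers was 4120 to 4511 CPM in control somata and 13370 to 14980 CPM in control processes, led by Gfap, and that of 9 neuronal markers was 2395 to 2740 and 5538 to 5970 CPM, led by Map2, although 6 of the 9 neuronal markers were lower in processes. The 7 microglial markers in the table summed to at most 2.445 CPM in a library and none passed the filter. In such bulk samples, fewer cells of a type and less RNA per cell cannot be told apart, and a level in the process fraction includes RNA of any cell that grew through the filter.

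Every library contained reads of all 9 genes, between 85 and 2236 in a library. Within the Rbfox family, Rbfox1 had 41.9 and 32 CPM in control somata (libraries 1 and 2), 35.7 and 26.5 in PTX somata, 42.4 and 33.6 in control processes, and 37.2 and 28 in PTX processes. Its library 1 was above its library 2 in each of the 4 conditions, by 0.33 to 0.43 on the log2 scale, more than the mean levels of the conditions differed. Rbfox2 had 42.9 and 40.5, 38.6 and 33.7, 49.2 and 39.7, and 35.5 and 30.9 CPM in the same order of conditions. For Rbfox2 the PTX libraries lay below the control libraries within each compartment, with no overlap. The share of all genes whose libraries did not overlap was not computed, so such statements, here and below, are descriptions only.

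Rbfox3 had 260 and 269 reads in control somata, or 11.05 and 10.5 CPM, and 6.51 and 7.11 CPM in PTX somata. In processes it had 16.3 and 14.6 CPM in the control and 10.7 and 10.7 CPM with PTX. The order of its levels was thus control processes, control somata and PTX processes at about the same level, and PTX somata last, and its libraries within a condition differed by at most 0.16 on the log2 scale.

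Nova1 had 37.4 and 41.9 CPM in control somata, 31.6 and 43.6 in PTX somata, 32.2 and 37.2 in control processes, and 36.5 and 41.1 in PTX processes, and its 4 conditions overlapped except for control processes, which lay just below control somata. Nova2, its paralog, had 6.67 and 8.38 CPM in control somata, 4.49 and 5.97 in PTX somata, 23.8 and 13.2 in control processes, and 10.3 and 9.65 in PTX processes. The control process libraries of Nova2 rested on 213 and 112 reads and differed by 0.85 on the log2 scale, the widest gap between replicates among the 9 genes. Both of these libraries stood above all others for this gene.

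Ptbp1 had 24.2 and 25.8 CPM in control somata, 23.4 and 28.6 in PTX somata, 15.95 and 16.9 in control processes, and 22.05 and 19.4 in PTX processes. Its lowest libraries were those of control processes, and all 4 process libraries were below all 4 somata libraries. Ptbp2 had 51.9 and 50.8, 46.1 and 44.4, 35.8 and 53.2, and 37.3 and 48.3 CPM in the same order. Its process libraries differed by 0.57 in the control and 0.37 with PTX on the log2 scale, library 2 being the higher, and the control process libraries enclosed all somata libraries.

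Mbnl1 had 18.9 and 20.2 CPM in control somata, 19.7 and 17.6 in PTX somata, 9.48 and 12 in control processes, and 11.6 and 11.2 in PTX processes. Mbnl2 had 74.3 and 63.4, 80.4 and 64.7, 54.5 and 47.9, and 53.2 and 44.6 CPM. For both genes all 4 process libraries were below all 4 somata libraries, while PTX and control libraries overlapped in somata and in processes. Levels are not compared between genes here, since reads were not divided by transcript length.

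**Figure D1:**
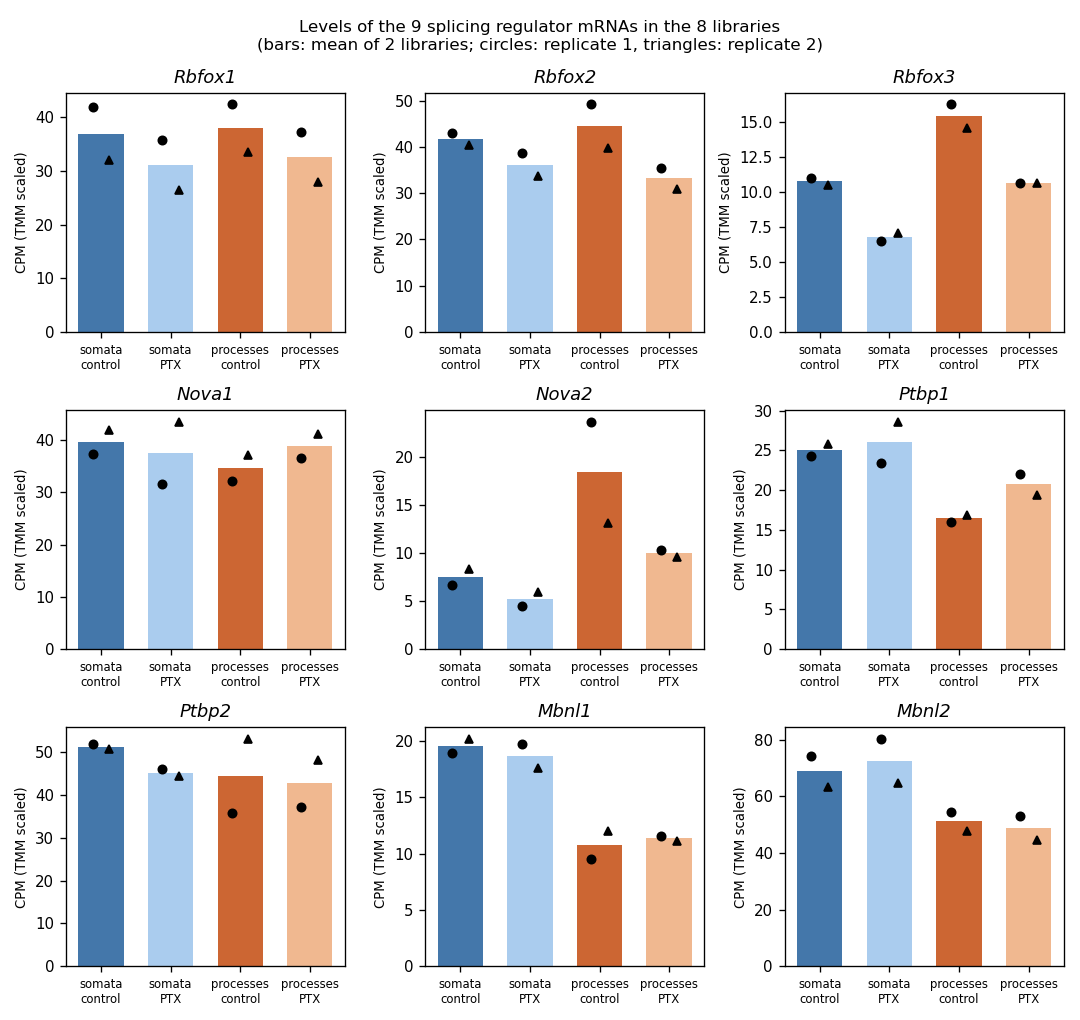
Levels of the 9 genes in CPM after TMM scaling (vertical axes, each starting at 0) in the 4 conditions; bars are means of 2 libraries, circles are library 1 and triangles library 2. Rbfox3 fell from 10.8 to 6.81 CPM in somata, Nova2 stood highest in control processes with its 2 libraries far apart, and Mbnl1 and Mbnl2 were lower in all process libraries.

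The first comparison asked which regulators' mRNAs differed between processes and somata in control cultures. Nova2 and Rbfox3 were higher in processes, and Ptbp1, Mbnl1 and Mbnl2 were lower, whereas Rbfox1, Rbfox2, Nova1 and Ptbp2 did not pass the test. Compartments differed for much of the transcriptome: 25.8% of the 14309 genes tested were called higher in processes and 21.9% lower, at an adjusted p under 0.05 in edgeR's quasi-likelihood test over all 8 libraries. The 2 of 9 members called higher and 3 of 9 called lower were read against those shares, and the median log2 fold change of the members was -0.19 against -0.05 for all genes tested.

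Nova2 showed the widest difference, a log2 fold change of 1.29 (SE 0.252, adjusted p = 0.00178 by edgeR), from 7.53 ± 1.21 CPM in somata to 18.5 ± 7.5 CPM in processes (SD, n = 2). Only 7.527% of all tested genes had a larger value. The size of this difference depended on control process library 1, without which it was 0.80, and without control process library 2 it was 1.66, still past the threshold in both cases. Rbfox3 was higher by 0.52 (SE 0.138, adjusted p = 0.0108), from 10.8 ± 0.364 to 15.4 ± 1.22 CPM, and its call was lost without control somata library 2 (0.47, adjusted p = 0.0701) or without control process library 1 (0.43, adjusted p = 0.0675). Both genes were higher in processes in 4 of 4 pairs of same-numbered libraries, PTX cultures included. So was Rbfox1, which was not called, and the share of all genes with such a pattern was not computed.

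Mbnl1, a member of the family whose proteins are trapped by expanded CUG repeats in myotonic dystrophy, was the most depleted, with a log2 fold change of -0.87 (SE 0.151, adjusted p = 0.000852), from 19.6 ± 0.917 to 10.7 ± 1.77 CPM. Mbnl2, the form most studied in brain, was lower by a log2 fold change of -0.43 (SE 0.146, adjusted p = 0.0336). That call was lost without control somata library 1 (-0.31, adjusted p = 0.194), without control process library 1 (-0.52, adjusted p = 0.0517) and without control process library 2 (-0.33, adjusted p = 0.177). Ptbp1 was lower by -0.61 (SE 0.141, adjusted p = 0.00503), from 25.0 ± 1.09 to 16.4 ± 0.682 CPM.

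The other members had intervals that included 0. The log2 fold change was 0.04 for Rbfox1 (95% interval -0.4 to 0.48), 0.09 for Rbfox2 (-0.2 to 0.39), -0.19 for Nova1 (-0.55 to 0.16) and -0.21 for Ptbp2 (-0.59 to 0.18). The value of Ptbp2 rested on its spread-out process libraries: without control process library 2 it was -0.52 and called lower (adjusted p = 0.0349), and without control process library 1 it was 0.05. These intervals do not show that the 4 mRNAs were evenly distributed.

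In PTX cultures the same comparison called Rbfox3 and Nova2 higher in processes, where 25.7% of all genes were called higher, and Mbnl1 and Mbnl2 lower, where 24% were called lower. The log2 fold change was 0.65 for Rbfox3 (SE 0.147, adjusted p = 0.00402), 0.94 for Nova2 (SE 0.273, adjusted p = 0.0152), -0.71 for Mbnl1 (SE 0.148, adjusted p = 0.00242) and -0.57 for Mbnl2 (SE 0.146, adjusted p = 0.00785), all by edgeR. Nova2 lost its call without PTX somata library 1 (0.74, adjusted p = 0.0875), PTX process library 1 (0.89, adjusted p = 0.0663) or PTX process library 2 (0.99, adjusted p = 0.0531). Mbnl2 lost it without PTX somata library 1 (-0.41, adjusted p = 0.0804) or PTX process library 2 (-0.45, adjusted p = 0.0733). Ptbp1 had a log2 fold change of -0.33 (SE 0.137, adjusted p = 0.0674). It passed the threshold when the replicate number was added as a block (adjusted p = 0.0236), a fit that called 29.6% of all genes lower. Ptbp1 also passed with upper quartile scaling (-0.51, adjusted p = 0.00991), where the median of all genes was -0.23. With at least 10 reads in every library it passed too (-0.39, adjusted p = 0.0308). It was -0.47 and called without PTX somata library 1 (adjusted p = 0.0386), and -0.17 without PTX somata library 2 (adjusted p = 0.413).

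**Figure D2:**
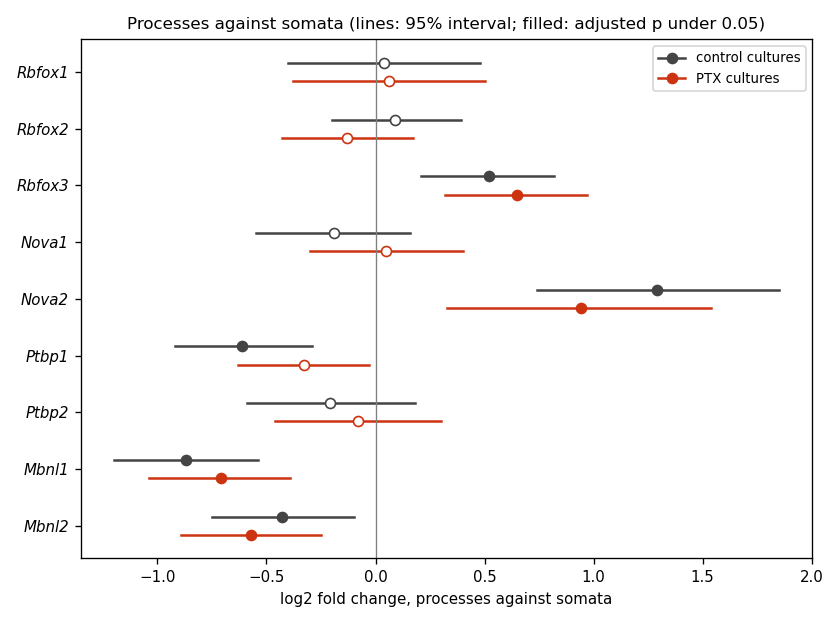
Log2 fold change of processes against somata (horizontal axis) for the 9 genes in control cultures (grey) and PTX cultures (red); points are edgeR estimates, lines their 95% intervals, and filled points have an adjusted p under 0.05. Rbfox3 and Nova2 lie to the right of 0 and Mbnl1 and Mbnl2 to the left in both kinds of culture, and Ptbp1 is filled in control cultures only.

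These directions are relative to the bulk of the transcriptome. With scaling by library size alone, which counts the mitochondrial reads, the median of all genes moved from -0.05 to -1.86 in control and -1.87 in PTX cultures, lower calls rose from 45.95 to 98.58% of calls in control and from 48.32 to 98.66% in PTX cultures, and all 9 members were called lower in processes in both. With upper quartile scaling the medians were -0.25 and -0.23 and lower calls made up 63.11 and 62.15%. Relative to the median of all genes, Nova2 stood at 1.34 under TMM, 1.32 under library size and 1.34 under upper quartile scaling in control cultures, and Rbfox3 at 0.57, 0.56 and 0.56. On the same relative scale Mbnl1 stood at -0.82, -0.81 and -0.82, Mbnl2 at -0.38 under each, and Ptbp1 at -0.56 under each. A change of scaling moves all genes of a comparison by about the same amount. Subtracting the median removes that move, so these values had to be nearly equal and are not separate support. With upper quartile scaling Rbfox3 in control cultures had a log2 fold change of 0.31 and did not pass the threshold (adjusted p = 0.0793).

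The next comparison asked whether 48 h of PTX changed these mRNAs in somata. Rbfox3 fell, and no other member passed the test. Its log2 fold change was -0.67 (SE 0.135, adjusted p = 0.0221 by edgeR), from 10.8 ± 0.364 to 6.81 ± 0.428 CPM, and both PTX libraries were below both control libraries. In all, 1.5% of the genes tested were called lower with PTX in somata, against 1 of the 9 members, and 2.453% of genes had a lower log2 fold change than Rbfox3. The call depended on the setting. It was kept with edgeR's likelihood ratio test (adjusted p = 0.000775), the replicate block (0.00105), no filter (0.00619) and upper quartile scaling (0.0191). Those settings called 6.79, 14, 5.04 and 3.77% of all genes in either direction, against 3.59% in the test reported. The call was lost with DESeq2 (-0.66, adjusted p = 0.0595) and with library size scaling (-0.60, adjusted p = 0.0585). It was also lost on leaving out control library 1 or 2 or PTX library 1 or 2, which left 1 library in a group, with log2 fold changes of -0.73 to -0.61. Lower calls made up 41.72% of all PTX calls in somata, and 28.51% with library size scaling, where the median of all genes moved from -0.01 to 0.06.

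Since Rbfox3 marks mature neurons, the neuronal markers are given beside it. Their summed level was 2395 to 2740 CPM in control and 2308 to 2608 CPM in PTX somata, overlapping. Of the 9, Gad1 (log2 fold change 0.82) and Gad2 (0.92), the enzymes of GABA synthesis, were called higher, and none was called lower. Not called were Tubb3 (-0.42), Stmn2 (-0.35), Slc17a7 (-0.33), Syt1 (-0.32), Map2 (-0.16), Snap25 (-0.03) and Nefl (0.13). The median of the 9 was -0.16, against -0.01 for all genes, of which 2.09% were called higher and 1.5% lower. With the replicate block 4 of the 9 were called lower and 2 higher, in a fit that called 6.79% of all genes lower and 7.21% higher. In the test reported, 1 of 9 astrocyte markers, Gja1, was called lower, where 1.5% of all genes were. The part of neuronal number in the fall of Rbfox3 was not tested.

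Nova2 had a log2 fold change of -0.53 in somata, close in size to that of Rbfox3, but with a larger error (SE 0.255, adjusted p = 0.357), on 125 to 214 reads per library. Its PTX libraries were below its control libraries. The remaining somata values were small: Rbfox1 -0.25 (95% interval -0.67 to 0.18), Rbfox2 -0.20 (-0.49 to 0.08), Ptbp2 -0.18 (-0.55 to 0.19), Nova1 -0.08 (-0.42 to 0.26), Mbnl1 -0.07 (-0.36 to 0.23), Ptbp1 0.06 (-0.23 to 0.34) and Mbnl2 0.08 (-0.23 to 0.39). For Rbfox2 and Ptbp2 the PTX libraries were below the control libraries without overlap, but neither passed the test (adjusted p = 0.54 and 0.706 by edgeR). The median of the 9 members was -0.18, against -0.01 for all genes.

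In processes, 0 of the 9 members passed the threshold for PTX against control in edgeR's quasi-likelihood test, where 3.74% of all genes did and 2.1% were called lower, and DESeq2 also called 0. Rbfox2, Rbfox3, Nova2 and Ptbp1 had an unadjusted p under 0.05 in the quasi-likelihood test. The share of all genes under that unadjusted threshold is not given here, so this is not read as a result about the members. Rbfox3 again had lower PTX libraries, 10.7 ± 0.0148 against 15.4 ± 1.22 CPM, with a log2 fold change of -0.53 (SE 0.149, adjusted p = 0.0838). Rbfox2 went from 44.4 ± 6.7 to 33.2 ± 3.26 CPM, a log2 fold change of -0.42 (SE 0.141, adjusted p = 0.147). It was -0.26 without control library 1 (adjusted p = 0.512) and -0.57 without control library 2 (adjusted p = 0.0853). Nova2 went from 18.5 ± 7.5 to 9.99 ± 0.482 CPM, a log2 fold change of -0.89 (SE 0.267, adjusted p = 0.106).

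With the replicate number as a block, these 3 genes were called lower, at adjusted p = 0.0294 for Rbfox3, 0.0103 for Rbfox2 and 0.00859 for Nova2, in a fit that called 6.09% of all genes lower. The likelihood ratio test of edgeR called Rbfox3 (adjusted p = 0.0478) and Nova2 (adjusted p = 0.031), at 6.63% of all genes called in either direction. Rbfox1, Rbfox2, Rbfox3 and Nova2 were lower with PTX in 4 of 4 same-numbered pairs over both compartments. The pair differences were -0.75 to -0.45 for Rbfox3, -0.47 to -0.15 for Rbfox2, -0.27 to -0.19 for Rbfox1 and -1.19 to -0.44 for Nova2. The share of all genes lower in 4 of 4 pairs was not computed, so this count is a description only. The value of Nova2 in processes was decided by control library 1: without it the log2 fold change was -0.40 (adjusted p = 0.535), and without control library 2 it was -1.25 (adjusted p = 0.0234). The same control process libraries enter the difference of Nova2 between compartments.

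Ptbp1 was the member with the highest log2 fold change in processes, 0.33 (SE 0.149, unadjusted p = 0.0479, adjusted p = 0.297), from 16.4 ± 0.682 to 20.7 ± 1.87 CPM with no overlap of libraries, and it did not pass the threshold. Markers of dividing cells moved in the same samples: the summed level of 6 such genes was 134 to 167.1 CPM in control and 258.6 to 270.6 CPM in PTX processes, with Top2a, Cdk1 and Ccnb1 called higher, and 93.8 to 114.1 and 124.1 to 175.7 CPM in somata, with Cdk1 called higher. Their part in the value of Ptbp1 was not tested. The log2 fold changes of the others in processes were -0.23 for Rbfox1 (95% interval -0.68 to 0.23), -0.07 for Mbnl2 (-0.4 to 0.27), -0.05 for Ptbp2 (-0.45 to 0.34), 0.09 for Mbnl1 (-0.28 to 0.45) and 0.16 for Nova1 (-0.2 to 0.53). The summed neuronal markers were 5538 to 5970 CPM in control and 4459 to 5263 CPM in PTX processes. Of these 9 markers 2 were called higher and 0 lower, where 1.64% of all genes were called higher and 2.1% lower. The replicate block called 3 higher and 4 lower, in a fit that called 5.1% of all genes higher and 6.09% lower. The median of the 9 markers was -0.12, against -0.01 for all genes.

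**Figure D3:**
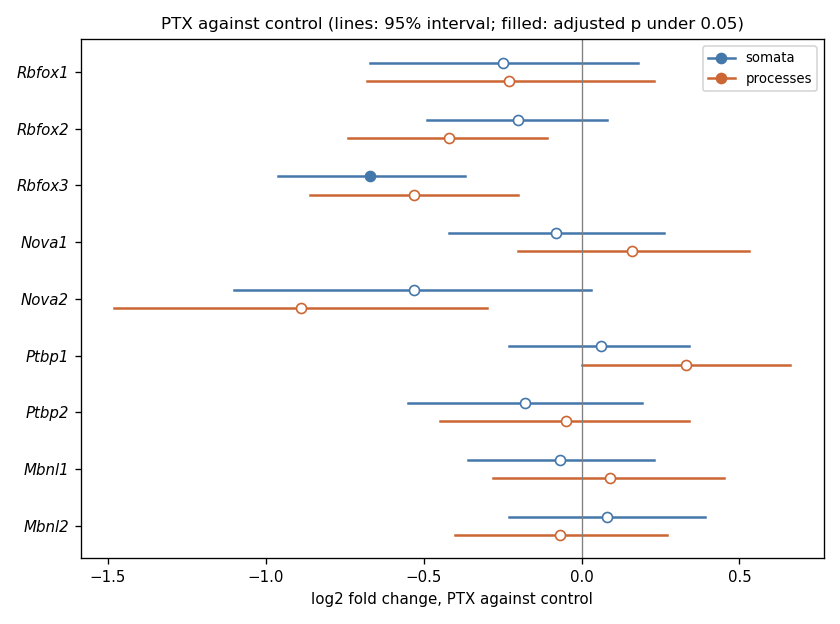
Log2 fold change of PTX against control (horizontal axis) for the 9 genes in somata (blue) and processes (orange); points are edgeR estimates, lines their 95% intervals, and the filled point has an adjusted p under 0.05. Rbfox3 in somata is the only filled point, and the estimates of Rbfox1, Rbfox2, Rbfox3, Nova2 and Ptbp2 lie below 0 in both compartments.

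Whether PTX acted differently on these mRNAs in the 2 compartments was tested by the interaction of PTX and compartment. No member had even an unadjusted p under 0.05 (0 of 9), and edgeR's quasi-likelihood test called 0% of all genes, with 572 of 14309 at an unadjusted p under 0.05, while the replicate block called 0.105% and 0 members. DESeq2 and the likelihood ratio test each called 4 genes and 0 members. The difference between compartments, processes minus somata, was -0.36 for Nova2 (95% interval -1.17 to 0.46), 0.13 for Rbfox3 (-0.31 to 0.58), -0.22 for Rbfox2 (-0.64 to 0.2) and 0.28 for Ptbp1 (-0.16 to 0.71) on the log2 scale. A call in somata and none in processes therefore does not show that the response of Rbfox3 differed between compartments.

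Ratios of reads between relatives within a library do not depend on the scaling. The log2 ratio of Nova2 to Nova1 was -2.48 and -2.32 in control somata, -2.81 and -2.86 in PTX somata, -0.44 and -1.5 in control processes, and -1.82 and -2.09 in PTX processes. All 4 process libraries were above all 4 somata libraries, by 1.16 on average (exact permutation test over the 8 libraries, two-sided, p = 0.0286, adjusted p = 0.143 over 10 tests). The log2 ratio of Rbfox2 to Rbfox3 was 1.96 and 1.94, 2.57 and 2.24, 1.59 and 1.44, and 1.73 and 1.53 in the same order, and was lower in processes by 0.60 on average with no overlap (exact permutation p = 0.0286, adjusted p = 0.143). The smallest p that 70 assignments allow is 0.0286, and none of the 10 tests of 5 ratios passed after adjustment, which only 6 or more tests at that smallest value could have done.

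The change from Ptbp1 to Ptbp2 accompanies neuronal differentiation, so their ratio was followed too. The log2 ratio of Ptbp2 to Ptbp1 was 1.1 and 0.98 in control somata, 0.98 and 0.63 in PTX somata, 1.16 and 1.65 in control processes, and 0.76 and 1.31 in PTX processes, and was 0.30 lower with PTX on average with overlapping libraries (exact permutation p = 0.2, adjusted p = 0.321). Within same-numbered pairs of libraries it was lower with PTX in 4 of 4, by differences of -0.4 to -0.12. The PTX difference was also of one sign in 4 of 4 pairs for Nova2 to Nova1 (-1.38 to -0.33), Rbfox1 to Rbfox3 (0.19 to 0.53) and Rbfox2 to Rbfox3 (0.09 to 0.61). With labels permuted within replicate number, these 4 PTX differences each had an adjusted p of 0.37 in the exact test. Permuting in this way allows fewer than 70 assignments, too few for any p under 0.05, and moves PTX labels across compartments. That test therefore could not decide whether the differences within pairs exceed the spread between libraries. The ratio of Mbnl2 to Mbnl1 was 0.29 higher in processes, in 4 of 4 pairs (exact permutation p = 0.114) and by -0.01 between PTX and control (p = 1), with overlap in both. The ratio of Rbfox1 to Rbfox3 was lower in processes by 0.53, in 4 of 4 pairs (exact permutation p = 0.0571, adjusted p = 0.19).

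**Figure D4:**
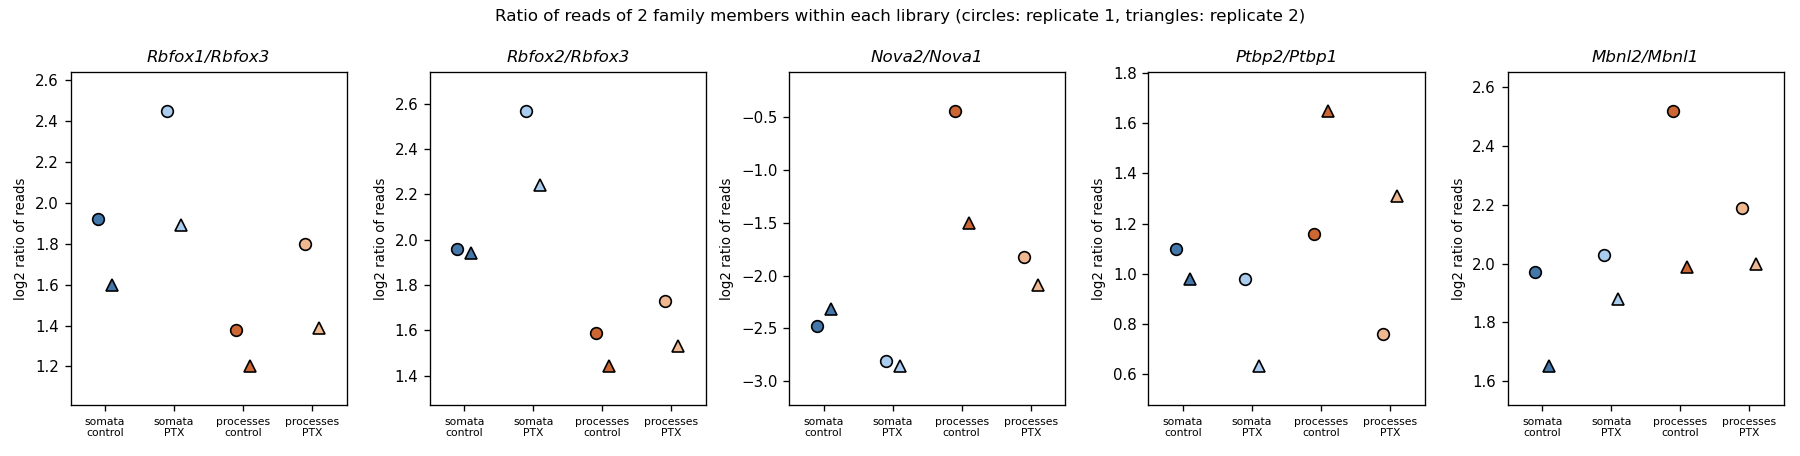
Log2 ratio of reads of 2 relatives within each library (vertical axes, not starting at 0) in the 4 conditions; circles are library 1 and triangles library 2. Nova2/Nova1 is higher in all process libraries, with control process library 1 highest at -0.44, and Rbfox2/Rbfox3 is lower in all process libraries.

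Likeness between members was measured as the Euclidean distance between their 4 condition means of log2 CPM, each centred on its own mean, as a description over 4 conditions without a test. Rbfox1 and Rbfox2 were each other's nearest member (distance 0.158), as were Nova1 and Ptbp2 (0.184) and Rbfox3 and Nova2 (0.555). Mbnl2 was nearest to Ptbp1 (0.285), and Mbnl1 nearest to Mbnl2 (0.329). Paralogs were thus not always nearest: the member farthest from Nova1 was its paralog Nova2 (1.371). Nova2 was also the farthest member from Rbfox1, Rbfox2, Ptbp1, Ptbp2, Mbnl1 and Mbnl2, so this is not particular to the Nova paralogs. For Rbfox1, 10207 genes averaging 5 CPM or more were compared, and the 5 nearest were Cspg5 (distance 0.019), Mtor (0.034), Grin2c (0.036), Cramp1 (0.038) and Creg2 (0.044). They were picked for this likeness, so their shared small excess in control over PTX conditions follows from the choice. The distances were smaller than the gap between the 2 Rbfox1 libraries of a condition, so which genes came nearest is uncertain.

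Paralogs and protein partners of the members did not pass the test for PTX. Of 15 such genes 14 were tested, and 0 were called in somata (median log2 fold change -0.05) and 0 in processes (median -0.06), while the replicate block called 2 lower in somata, Matr3 and Ddx5, and 1 lower in processes, Hnrnpm, at 6.79 and 6.09% of all genes. Between compartments in control cultures, 4 of the 14 were higher in processes and 2 lower, near the 25.8 and 21.9% of all genes. Hnrnpul2 was the highest (log2 fold change 1.22, SE 0.11, adjusted p = 9e-06), followed by Tardbp (0.58), which encodes TDP-43. The helicase Ddx5 was the lowest (-0.63, SE 0.134, adjusted p = 0.00319), followed by Ilf2 (-0.61).

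Among 19 other tissue-restricted or neuronal splicing regulators, 16 were tested. With PTX, 3 were called lower in somata and none higher, at a background of 1.5% lower: Rbm24, a regulator best known in muscle and of low level here (mean 2.88 CPM, -1.08, SE 0.247, adjusted p = 0.0388), Khdrbs3, also known as SLM2 (-0.82, SE 0.11, adjusted p = 0.00311) and Celf2 (-0.52, SE 0.117, adjusted p = 0.0351). In processes 3 were called lower, at a background of 2.1%, and none higher: Celf4 (-1.15, SE 0.203, adjusted p = 0.0135), Celf5 (-0.88, SE 0.145, adjusted p = 0.00989) and Celf2 (-0.54, SE 0.122, adjusted p = 0.0372). With the replicate block 5 were lower in each compartment, where that fit called 6.79% of all genes lower in somata and 6.09% in processes. The median of the list was -0.25 in somata and -0.37 in processes against -0.01 for all genes in each. Between compartments in control cultures 6 of the 16 were higher in processes and 2 lower, against 25.8 and 21.9% of all genes, from Celf4 (1.06) and Elavl3 (1.02) to Elavl2 (-0.40) and Elavl4 (-0.42).

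Of 20 genes whose transcripts are known targets of members, all were tested. The list was drawn up with earlier results of these data known. The study had already reported Camk2a as lowered in both compartments from these libraries, so its fall here is not separate support. Camk2a, the alpha subunit of CaM kinase II, fell in somata (-1.13, SE 0.15, adjusted p = 0.00305) and in processes (-1.45, SE 0.149, adjusted p = 0.00165). Scn8a, a voltage-gated sodium channel, fell in processes (-0.59, SE 0.127, adjusted p = 0.0309) and had -0.48 in somata (adjusted p = 0.051). None of the 20 was called higher, where 2.09% of all genes were in somata and 1.64% in processes. The lower calls were 1 of 20 in somata, at 1.5% of all genes, and 2 of 20 in processes, at 2.1%. The medians were -0.15 in somata and -0.13 in processes, against -0.01 for all genes in each. The replicate block called 8 lower in somata, in a fit that called 6.79% of all genes lower, and 4 lower in processes, at 6.09%. Between compartments in control cultures 7 of the 20 were higher in processes and 9 lower, against 25.8 and 21.9% of all genes. Camk2a was the highest (2.55) and Dlg4, the PSD-95 gene whose exon choice Ptbp proteins control, came next (1.78), while Grin1 (-1.10), a glutamate receptor subunit with alternative exons, was among the lowest. These are changes of total mRNA, and no exon of these targets was measured here.

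**Figure D5:**
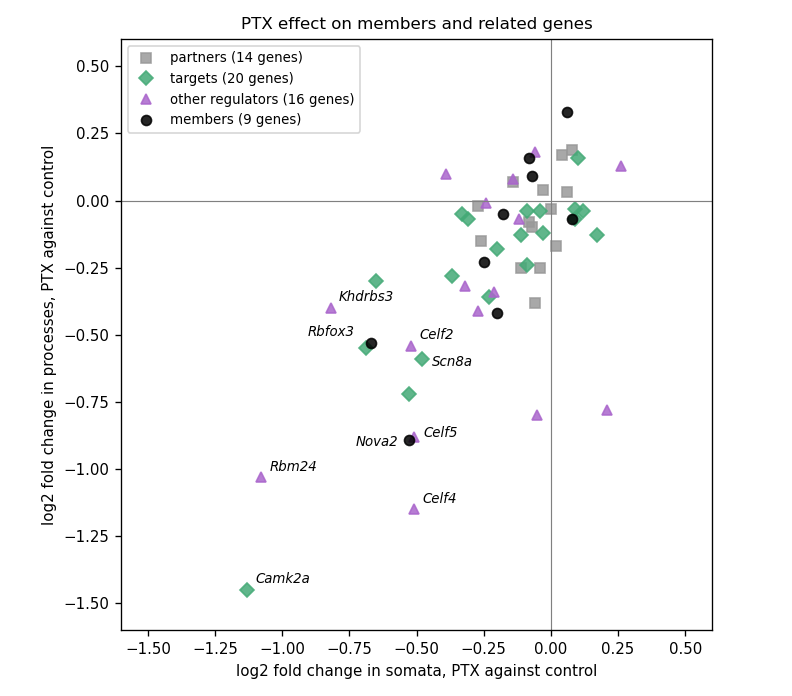
Log2 fold change of PTX against control in somata (horizontal axis) and in processes (vertical axis), 1 point per gene, for the 9 members (black circles), 14 paralogs and partners (grey squares), 16 other splicing regulators (purple triangles) and 20 targets (green diamonds). Camk2a, Rbm24, Celf4, Khdrbs3, Nova2 and Rbfox3 lie below 0 on both axes, and the partners lie near the origin.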

How the data were processed

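Gene counts were deposited by the authors as whole-number counts per gene symbol in 8 libraries. Per the study's methods, reads from a directional kit were trimmed, mapped to Rnor 6.0 with Subread, counted with featureCounts and summed by symbol. The submitters' processing notes list STAR, featureCounts and edgeR instead, and the strand setting is not given in the sources used here, so reads of antisense partners may be included. Deposited tables of the authors' own comparisons (fold changes and p-values) were not used, and 0 per-sample columns were left out.

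Groups came from the sample titles. Counts were filtered (more than 20 reads in at least 2 libraries), scaled by TMM and fitted over all 8 libraries with edgeR 4.0.16 (glmQLFit, glmQLFTest) in R 4.3.3, with Benjamini-Hochberg adjustment over 14309 genes and a threshold of 0.05. The SE was the log2 fold change over the square root of F. CPM used TMM library sizes, and ratios used a pseudocount of 0.5. The method was tested on simulated data. Same-numbered libraries deviated together in all 6 pairs of conditions (r = 0.27 to 0.54). The test reported did not use the numbers as pairs. The replicate block did, and is given where it changes a call. Other settings tried were DESeq2 1.42.0, edgeR's likelihood ratio test, further scalings and filters, only the 4 libraries compared, the block, and leaving out each library.

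The members and lists were chosen with earlier results of these data known. All members are named, and list genes where called with PTX (in the block fit for partners, a choice made after their values were seen) or among the 2 highest or lowest of their list. No sequences are shown, since the values concern whole genes.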

Additional observations from a re-analysis of the deposited data

How the results depend on the processing

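Depth limited the process libraries, where Mbnl1 had as few as 85 reads, and with 2 libraries a condition most calls near the threshold depended on 1 of them. For PTX in somata, members called were 1 in the test reported, 0 with DESeq2, 0 with library size scaling and 0 to 1 on leaving out a library. For PTX in processes they were 0, against 2 with the likelihood ratio test, 1 with no filter, 3 with the replicate block, and 0 to 1 on leaving out a library. Between compartments they were 5 in control and 4 in PTX cultures, against 9 and 9 with library size scaling, and 3 to 5 and 2 to 4 on leaving out a library. The paired analysis (replicate block) changed the calls given above and no other call of a member. Over all genes, PTX calls in somata were 513, against 972 (likelihood ratio test), 1141 (no filter), 2002 (replicate block) and 116 to 568 (a library left out), and in processes 535, against 949, 1129, 1601 and 97 to 481, with 299 from only the 4 libraries compared. Compartment calls were 6823 and 7121, against 13462 and 13499 with library size scaling. Interaction calls were 0, against 4 with DESeq2 or the likelihood ratio test, 10 with no filter and 15 with the block.

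Reversals of compartment values under library size scaling were -1.77 (Rbfox1), -1.72 (Rbfox2), -1.3 (Rbfox3) and -0.54 (Nova2) in control cultures, and -1.77 (Rbfox1), -1.18 (Rbfox3), -1.77 (Nova1) and -0.89 (Nova2) in PTX cultures, where the scaling itself shifts the median of all genes. Under upper quartile scaling they were -0.16 (Rbfox1) and -0.11 (Rbfox2), and in PTX cultures -0.11 (Rbfox1) and -0.13 (Nova1). With at least 10 reads in every library, they were -0.03 (Rbfox1), and in PTX cultures 0 (Rbfox1) and -0.02 (Nova1).

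On leaving out a library, values that changed sign, none of them called in the test reported, ranged as follows. PTX in somata: -0.33 to 0.13 for Nova1, -0.1 to 0.19 for Ptbp1, -0.16 to 0.01 for Mbnl1 and -0.09 to 0.22 for Mbnl2. PTX in processes: -0.31 to 0.26 for Ptbp2, -0.08 to 0.26 for Mbnl1 and -0.2 to 0.05 for Mbnl2. Compartments in control cultures: -0.15 to 0.25 for Rbfox1, -0.07 to 0.24 for Rbfox2 and -0.52 to 0.05 for Ptbp2. Compartments in PTX cultures: -0.15 to 0.3 for Rbfox1, -0.16 to 0.3 for Nova1 and -0.28 to 0.09 for Ptbp2. Interaction: -0.2 to 0.26 for Rbfox1, -0.72 to 0.13 for Nova2, -0.13 to 0.44 for Ptbp2, -0.01 to 0.33 for Mbnl1 and -0.29 to 0.03 for Mbnl2. The PTX difference of the Mbnl2 to Mbnl1 ratio ranged from -0.14 to 0.15, and was 0.14 over somata libraries only. Beyond the scaling shift, the cause of these changes was not tested.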
